A study of Mus musculus with 4 samples.

Results

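The keratin and epidermal differentiation clusters are 3 stretches of the mouse genome that hold the structural genes of skin, hair and other epithelia. Their methylation was measured in fetal liver, at all regions of a tiling array with probes that start on mm9 chromosome 11 from 99100000 to 100100000 (the type I keratins and the keratin-associated proteins), chromosome 15 from 101200000 to 101900000 (the type II keratins) or chromosome 3 from 91800000 to 93500000 (the epidermal differentiation complex). Members were taken by position, and no measured value enters the rule. The stretches held 327 of the 56653 regions of the array: 135 in the type I cluster, 65 in the type II cluster and 127 in the epidermal differentiation complex. A region is a group of at least 3 probes with neighbouring starts at most 500 bp apart and all starts within 2000 bp.

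The food restricted pool came from C57BL/6J fetuses whose dams were restricted from gestation day 10 to 17 to 50% of what control dams ate. The control pool came from C57BL/6J fetuses of dams with free access to the same chow. All livers were collected on gestation day 18, each pool is described as N = 6, and the labels do not say whether that counts fetuses or litters. Methylated DNA was immunoprecipitated from each pool and hybridised against total DNA of the same pool on 2 arrays with the dyes exchanged, so the data are 4 arrays on 2 slides. On a given slide the orientation was the same for both pools.

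Since the arrays of a pool repeat 1 sample, they measure technical spread only. No test between the pools was possible, and the values of both slides are given in its place. M is the log2 of immunoprecipitated over reference signal, centred on the median of the array, so 0 is the middle of all probes. D denotes the difference in M between the pools within a slide, food restricted minus control. In the deposited value table the columns of the food restricted array of slide 1 and the control array of slide 2 hold each other's scanner values. The pools are those of the scanner files throughout, and the counts of calls with the other assignment are given beside the main ones. In this assay M grows with the number of methylated CpG sites on a fragment, so a fragment with few CpG sites has a low M even when they are methylated. The array measures DNA only, so the labelled tissue was not checked against marker genes.

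Keratins build the intermediate filaments of epithelial cells, and each filament needs a type I and a type II partner. Hepatocytes use the simple epithelial pair Krt18 and Krt8, whereas the layers of the epidermis use pairs such as Krt14 with Krt5 and Krt10 with Krt1, and the hair shaft uses hair keratins embedded in keratin-associated proteins. The epidermal differentiation complex encodes loricrin (Lor), involucrin (Ivl), filaggrin (Flg) and the Sprr and Lce families, which are laid down in the cornified envelope of outer epidermal cells, next to S100 calcium-binding proteins that many tissues express. Most of these genes are silent in liver.

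Promoters of these genes differ in how many CpG sites they offer to methylation. In the RefSeq promoter windows of assembly GRCm38.p6, which cover 300 bases around a gene's start, the window of Krt18 held 17 CpG sites, that of Krt10 held 2, that of S100a11, a widely expressed calcium-binding protein, held 15, and that of Ivl held 0. The following windows are shown because they span that range, with each CG in capitals. Krt18 lies at chr15:102027966-102028265 on the plus strand, Krt10 at chr11:99389315-99389614 on the minus strand, S100a11 at chr3:93520246-93520545 on the plus strand and Ivl at chr3:92573686-92573985 on the minus strand, all on GRCm38.p6.
Krt18: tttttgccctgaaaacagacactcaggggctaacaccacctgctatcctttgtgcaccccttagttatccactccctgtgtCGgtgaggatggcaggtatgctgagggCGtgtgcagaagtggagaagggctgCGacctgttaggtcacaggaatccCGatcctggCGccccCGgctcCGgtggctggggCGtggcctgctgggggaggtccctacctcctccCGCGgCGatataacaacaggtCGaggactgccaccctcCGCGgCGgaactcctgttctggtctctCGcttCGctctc
Krt10: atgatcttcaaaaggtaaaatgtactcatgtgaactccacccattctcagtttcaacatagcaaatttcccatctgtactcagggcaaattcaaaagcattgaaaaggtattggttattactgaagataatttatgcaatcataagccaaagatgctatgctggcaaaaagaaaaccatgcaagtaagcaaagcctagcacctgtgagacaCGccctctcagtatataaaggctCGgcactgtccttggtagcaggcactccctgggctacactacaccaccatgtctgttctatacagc
S100a11: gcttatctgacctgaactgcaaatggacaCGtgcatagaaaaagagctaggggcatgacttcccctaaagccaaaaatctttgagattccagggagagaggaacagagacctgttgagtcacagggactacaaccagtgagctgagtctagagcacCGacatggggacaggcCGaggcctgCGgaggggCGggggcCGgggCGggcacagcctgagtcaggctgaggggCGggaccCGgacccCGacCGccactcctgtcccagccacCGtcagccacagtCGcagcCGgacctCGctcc
Ivl: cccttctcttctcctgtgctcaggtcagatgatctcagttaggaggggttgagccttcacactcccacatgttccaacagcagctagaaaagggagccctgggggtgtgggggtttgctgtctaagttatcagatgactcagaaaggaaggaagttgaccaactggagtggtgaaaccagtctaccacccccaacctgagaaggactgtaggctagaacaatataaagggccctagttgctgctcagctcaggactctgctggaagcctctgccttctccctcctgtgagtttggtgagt

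The motif counted was CG, which reads the same on both strands. In the epidermal differentiation complex, 45 of 50 listed genes had a window, the median was 1 CpG site, and 24.4% of windows held none. Over all 32851 RefSeq windows the median was 7 and 5.43% held none. The 14 Sprr and the 20 Lce windows each had a median of 1, and S100a11 was the only one of the 45 with at least 10. Among the keratins, 5 of 6 simple epithelial genes had a window, with 21 CpG sites in Krt7, 17 in Krt18 and 6 each in Krt8, Krt20 and Krt23. The mucosal and corneal keratins (5 of 6 genes) had a median of 4.5, the inner root sheath keratins (7 of 8 genes) 6 and the Krtap genes (21 of 23 genes) 2. For the epidermal and hair keratins 5 of 11 and 6 of 12 genes had a window, too few for a comparison. These windows are on another build than the probes and were not joined to them, and no region below is placed on a gene.

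**Figure D1:**
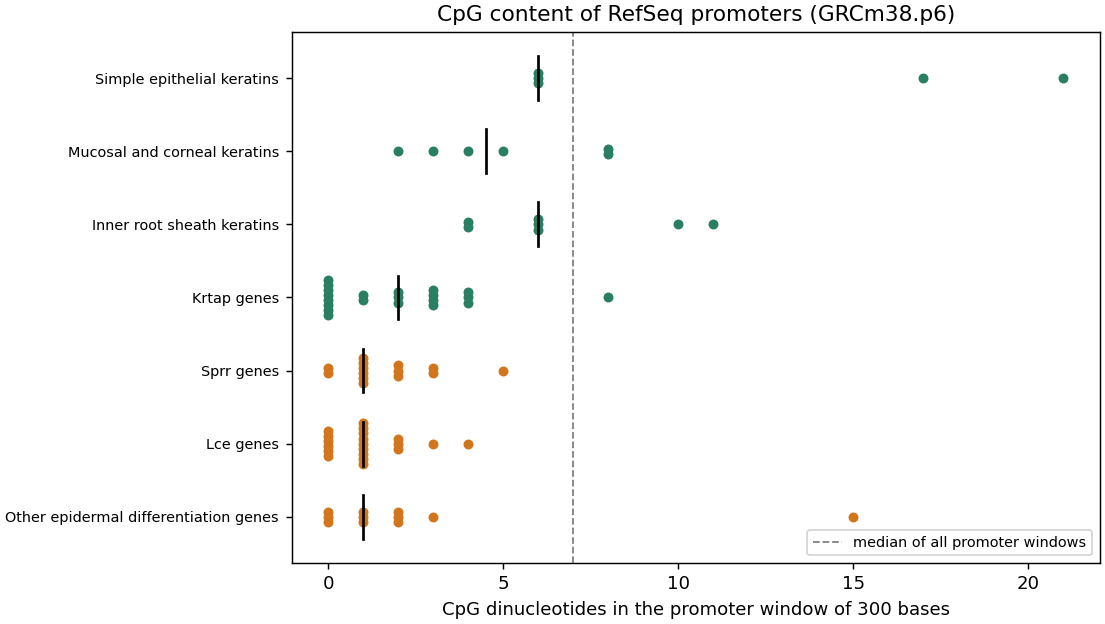
CpG sites per RefSeq promoter window (horizontal axis, number of CG in 300 bases, GRCm38.p6) for 7 gene lists of the clusters. Points are single windows, the short bar is the median of a list and the dashed line is the median of all 32851 windows. The 3 epidermal differentiation lists have a median of 1, against 7 for all windows, with S100a11 alone at 15.

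The clusters stood on opposite sides of the array. Median M over the regions of the epidermal differentiation complex was −1.08 and −1.02 on the food restricted arrays of slides 1 and 2, against −1.34 and −1.30 on the control arrays. In the type I cluster it was 0.58 and 0.58 on the food restricted arrays, against 0.62 and 0.65 on the control arrays. In the type II cluster it was 0.77 and 0.87 on the food restricted arrays, against 1.09 and 1.03 on the control arrays. Over all 56653 regions the 4 medians lay between −0.09 and −0.08, so both keratin clusters were above the middle of the array and the epidermal differentiation complex was below it on all 4 arrays.

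Strongly enriched regions were rare in the epidermal differentiation complex and frequent in the keratin clusters. M above 1, a ratio over 2 times that of the array's middle, was found in the epidermal differentiation complex at 2 regions of the food restricted pool (1.57%) and 3 of the control pool (2.36%). In the type I cluster it was found at 56 regions of the food restricted pool (41.5%) and 57 of the control pool (42.2%), and in the type II cluster at 29 (44.6%) and 33 (50.8%). Over all regions the share was 27.8% in the food restricted pool and 29.7% in the control pool. These counts depend on the centring and on dim probes: by mean M over the 4 arrays, 2 of 127 regions of the complex exceeded 1, but 16 did with densest value centring and 11 of the 39 still measured did without dim immunoprecipitated probes. In the type II cluster 30 of 65 did, against 13 with loess and 15 with normexp. Densest value centring also raised the keratin counts, from 56 to 91 in the type I cluster and from 30 to 50 in the type II cluster. The median of the complex relative to all regions was −1.11 with that centring and −0.65 without dim immunoprecipitated probes. Shares over all regions are not given for these settings. Regions with M below 0 made up 89.0% of the epidermal differentiation complex in the food restricted pool and 87.4% in the control pool, against 52.4% and 52.0% of all regions.

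When all regions were divided into 10 equal classes by mean M over the 4 arrays, the lowest 3 classes held 40, 26 and 22 of the 127 regions of the epidermal differentiation complex, and the highest class held 0. The highest class held 20 regions of the type I cluster and 14 of the type II cluster. The middle 50% of type I regions ran from −0.42 to 1.92 in the food restricted pool and from −0.40 to 1.99 in the control pool. In the epidermal differentiation complex the same range was −1.39 to −0.68 in the food restricted pool and −1.65 to −0.64 in the control pool. The type I cluster therefore held both strongly and weakly enriched regions, while the epidermal differentiation complex was narrow and low. Many regions of the complex had dim immunoprecipitated signal (given below), so this narrow range rests partly on M that is not a measured level.

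**Figure D2:**
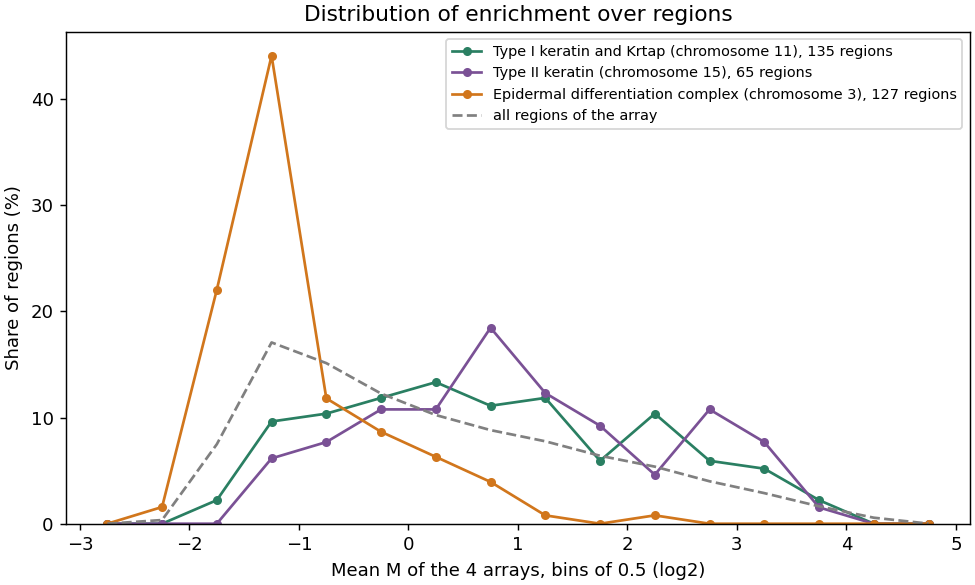
Share of regions (vertical axis, percent) by mean M of the 4 arrays (horizontal axis, bins of 0.5 on the log2 scale), with 1 line for each cluster and a dashed line for all regions of the array. The epidermal differentiation complex has a single narrow peak with 44.1% of its regions between −1.5 and −1, against 17.1% of all regions, while both keratin clusters are spread from below −1 to nearly 4. Many regions of the complex have dim immunoprecipitated signal, and their M is not a measured level.

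The surroundings were not alike. Inside the type I cluster the median M was 0.60 in the food restricted pool and 0.64 in the control pool. Over the 211 regions within 1 Mb of it the median M was 0.23 and 0.37, but the 2 sides differed. The proximal side had a median M of −0.13 and −0.17 (95 regions). The distal side had a median M of 0.54 in both pools (116 regions), close to that of the cluster. Inside the type II cluster it was 0.90 in the food restricted pool and 1.05 in the control pool, against 0.46 and 0.47 around it (167 regions), where the proximal side alone reached 1.17 and 1.30 and the distal side −0.42 and −0.49. Inside the epidermal differentiation complex it was −1.10 in the food restricted pool and −1.31 in the control pool, against −0.42 and −0.66 around it, on 35 regions of which 2 lay on the proximal side. The rest of chromosome 3 was at −0.15 in the food restricted pool and −0.12 in the control pool.

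At the borders the level differed strongly only in places. The region just inside the distal border of the type II cluster (101858425 to 101859661) had M of 1.51 in the food restricted pool and 1.54 in the control pool. The next region outside (101902487 to 101903833) had −0.93 and −1.42. A member region further inside, from 101855233 to 101856627, had −1.37 and −1.28, so low M was not confined to the outside of this border. At the proximal border the first region inside (101201227 to 101202460) had 2.71 and 2.60, and the region that spans the border, which is not a member, had 1.73 and 1.97. At the proximal border of the type I cluster the values were −0.13 and −0.04 inside and 0.20 and 0.45 outside, and at its distal border 0.37 and 0.43 inside and 0.06 and 0.09 outside. The epidermal differentiation complex had −1.30 and −1.61 just inside its proximal border and −0.89 and −0.65 just inside its distal border, where the nearest regions outside are far away, at 90896478 to 90896837 with −0.80 and −1.11 and at 94110643 to 94111257 with −1.65 and −2.06.

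Within the type I cluster the enrichment was highest at the proximal end. The first 100 kb had a median M of 2.98 in the food restricted pool and 2.78 in the control pool, the second 1.91 and 2.05, and the third 1.02 and 1.25. The sixth was the lowest, at −0.83 and −1.08, followed by −0.49 and −0.38 in the seventh. The last 3 windows returned to between 0.36 and 0.66 in the food restricted pool and between 0.43 and 0.81 in the control pool. A run of 13 consecutive regions over 131.1 kb, from 99106137 to 99237247, had M above 0 on all 4 arrays, and its first 8, over 95.4 kb, had M above 1.

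In the type II cluster strong and weak regions alternated. Of its 65 regions, 45 had M above 0 and 15 had M below 0 on all 4 arrays, and no 2 of those 15 were neighbours. Its windows of 100 kb had medians between 0.31 and 1.69 in the food restricted pool and between 0.42 and 1.79 in the control pool. M of neighbouring regions correlated at r = −0.18 over 64 pairs, against 0.34 over 134 pairs in the type I cluster and 0.15 over 126 pairs in the epidermal differentiation complex. These correlations describe neighbours that share arrays and probe design, and carry no test.

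The epidermal differentiation complex was low along its whole length. M was below 0 on all 4 arrays at 106 of its 127 regions (83.5%), and the longest unbroken run was 26 regions over 227.6 kb, from 92236664 to 92464242. Each of its windows of 100 kb that held a region had a median below 0 in both pools, from −1.49 to −0.26 in the food restricted pool and from −1.67 to −0.26 in the control pool. The highest windows lay 1000 kb and 1500 kb from the start of the interval, with −0.34 and −0.42 in the first and −0.26 in both pools in the second. No probe lay between 200 and 300 kb.

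**Figure D3:**
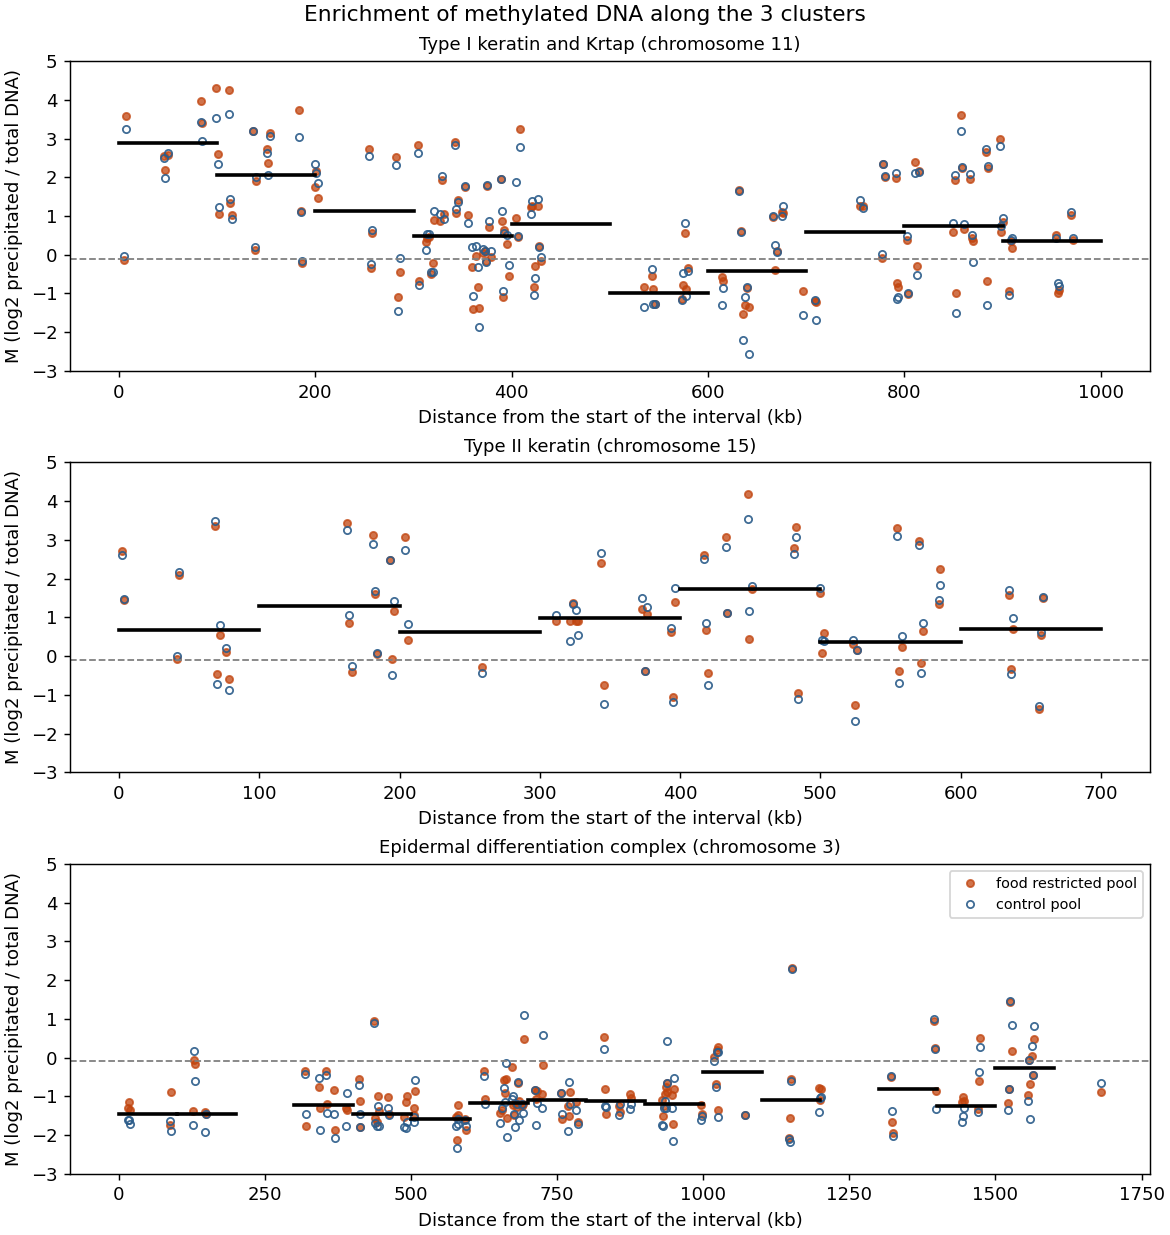
M of each region (vertical axis, log2 scale) against its distance in kb from the start of the interval, in the 3 clusters, with filled points for the food restricted pool and open points for the control pool. Black bars are medians of mean M in windows of 100 kb with at least 3 regions and the dashed line is the median of all regions. The type I cluster is highest in the first 100 kb, with medians of 2.98 in the food restricted pool and 2.78 in the control pool, and most of the epidermal differentiation complex lies below 0.

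The single regions mark the extremes. The strongest type I region, on chromosome 11 from 99211364 to 99212544 (7 probes), had M of 4.28 and 4.22 on the food restricted arrays, against 3.77 and 3.51 on the control arrays. The next, from 99198396 to 99199570 (6 probes), had 4.20 and 4.40 on the food restricted arrays, against 3.60 and 3.44 on the control arrays, and the third, from 99183277 to 99184415 (7 probes), had 3.84 and 4.11, against 3.48 and 3.39. In all 3 both food restricted arrays were above both control arrays, and all 3 lay within 29.27 kb. The weakest type I regions had 3 probes each. The one from 99741112 to 99741503 had −1.44 and −1.25 in the food restricted pool, against −2.62 and −2.49 in the control pool, the one from 99735304 to 99735684 had −1.25 and −1.80, against −2.47 and −1.95, and the one from 99466325 to 99466976 had −1.77 and −0.996, against −1.84 and −1.89.

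In the type II cluster the strongest region, on chromosome 15 from 101647514 to 101648766 (9 probes), had M of 4.38 and 3.97 on the food restricted arrays, against 3.52 and 3.56 on the control arrays. The regions from 101268253 to 101268691 (3 probes) and from 101362214 to 101363205 (6 probes) followed, with 3.04 and 3.70 and with 3.56 and 3.29 on the food restricted arrays, against 3.52 and 3.44 and 3.48 and 3.02 on the control arrays. For these last 2 regions the arrays of the pools overlapped. The weakest regions of this cluster were less extreme than those of the type I cluster, and each had over 50% of its probes well above background on every array. They had −1.29 and −1.24 in the food restricted pool, against −1.80 and −1.53 in the control pool (101724854 to 101725129, 3 probes), −1.12 and −1.62, against −1.19 and −1.38 (101855233 to 101856627, 8 probes), and −1.002 and −1.13, against −1.08 and −1.31 (101594402 to 101595516, 6 probes).

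The epidermal differentiation complex held 2 regions with M above 1 on all 4 arrays. At chromosome 3 from 92950519 to 92951744 (7 probes) M was 2.27 and 2.37 on the food restricted arrays, against 2.31 and 2.28 on the control arrays. The other, from 93324870 to 93326176 (7 probes), had 1.53 and 1.32, against 1.60 and 1.35. In both the pools differed by less than the arrays of 1 pool. The third in rank, from 93194408 to 93196212 (7 probes), had 0.76 and 1.11, against 0.88 and 1.098. The first of these stood 3.45 kb from one of the weakest regions of the complex, from 92945353 to 92947069 (10 probes), which had −2.12 and −2.02 in the food restricted pool, against −2.03 and −2.19 in the control pool. The other weakest regions were those from 92377202 to 92378463 (7 probes), with −2.26 and −2.003, against −2.18 and −2.48, and from 93124297 to 93124680 (3 probes), with −2.01 and −1.86, against −2.22 and −1.83. Under 50% of immunoprecipitated signals were well above background in these last regions on every array, and in that from 92945353 on both control arrays. Their M there is not a measured level.

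Low M in the epidermal differentiation complex went with dim immunoprecipitated signal. Immunoprecipitated signals well above background were found at 48.4% and 48.3% of its probes on the food restricted arrays, against 34.0% and 32.8% on the control arrays, whereas over all probes in regions the shares were 80.2% and 80.9%, against 72.6% and 72.3%. In the type I cluster the shares were 82.6% and 83.9% on the food restricted arrays, against 78.2% and 77.8% on the control arrays, and in the type II cluster 95.3% and 96.3%, against 92.4% and 91.75%. In the reference channel 89.5% and 96.0% of the probes of the epidermal differentiation complex were above background on the food restricted arrays, against 90.5% and 95.2% on the control arrays. The median reference signal there was 824 and 879 on the food restricted arrays, against 757 and 742 on the control arrays, below the 1236 and 1329, against 1200 and 1242, over all probes. The part of reference brightness, CpG density and methylation in the low M of this complex was not tested.

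A region is called dim in a pool when under 50% of its immunoprecipitated signals were well above background on both arrays, and its M there is not a measured level. In the epidermal differentiation complex 55 of 127 regions (43.3%) were dim in the food restricted pool and 86 (67.7%) in the control pool, against 10.2% and 17.98% of all regions. In the type I cluster 10 of 135 were dim in the food restricted pool and 17 in the control pool, and in the type II cluster 0 of 65 and 1. With dim regions left out of the clusters and of the array, the median of the epidermal differentiation complex over both pools lay at −0.80 relative to all regions, against −1.11 with them.

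**Figure D4:**
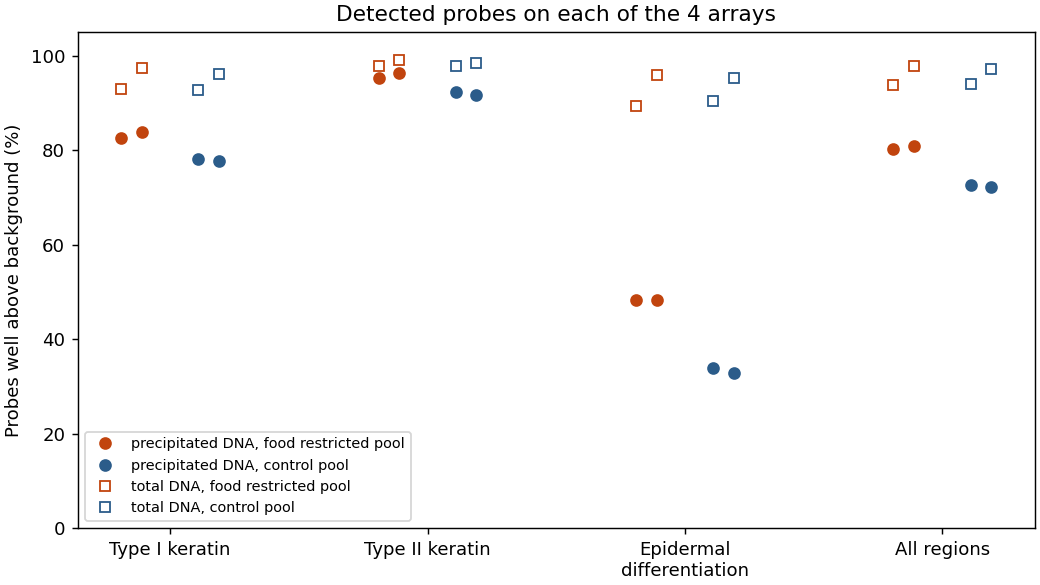
Percent of probes well above background (vertical axis) in each cluster and over all regions, 1 point per array, with food restricted arrays left of control arrays. Filled circles are immunoprecipitated DNA and open squares total DNA. Immunoprecipitated signals in the epidermal differentiation complex reach 48.4% and 48.3% on the food restricted arrays and 34.0% and 32.8% on the control arrays, below all other sets shown.

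The pools were then compared at each region, to see whether the clusters took part in the differences between livers of food restricted and control fetuses. Regions counted as called had D of 0.5 or more in size (1.41-fold) on each slide and in the same direction. Of the 327 regions, 12 (3.67%) were called higher in the food restricted pool, against 4.55% of all regions of the array, and 5 (1.53%) were called lower, against 0.643%. A further 3 passed this size with opposite signs, against 0.717% of all regions. With the 2 arrays assigned as in the value table, 6 regions were higher and 1 lower. Of the original calls only the region from 92525612 to 92527204 was called there, and in the other direction, with a mean D of 0.62. By cluster that assignment gave 4 higher and 0 lower regions (type I), 1 and 0 (type II) and 1 and 1 (epidermal differentiation complex). The higher share of the clusters was near that of the array, and the lower share rests on 5 regions.

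By cluster, the type I cluster had 6 higher regions (4.44%) and 0 lower, the type II cluster 0 higher and 1 lower (1.54%), and the epidermal differentiation complex 6 higher (4.72%) and 4 lower (3.15%). The higher shares of the type I cluster and the epidermal differentiation complex thus lay at the 4.55% of the array, which is a share over all levels of M. Regions with opposite signs numbered 1 in the type I cluster, 0 in the type II cluster and 2 in the epidermal differentiation complex. Of the 12 higher regions 7 were dim in the control pool, 5 of them in the epidermal differentiation complex, and 3 of the 4 lower regions there were dim in at least 1 pool.

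The median D on slides 1 and 2 was −0.01 and 0.03 in the type I cluster, −0.05 and 0.05 in the type II cluster and 0.08 and 0.14 in the epidermal differentiation complex, against 0.04 and 0.09 over all regions. In the epidermal differentiation complex D was above 0 on both slides at 51 regions (40.2%) and below 0 on both at 17 (13.4%). In the type I cluster the counts were 39 (28.9%) and 30 (22.2%), in the type II cluster 25 (38.5%) and 23 (35.4%), and over the whole array 39.1% and 23.7% of regions. The median D of the epidermal differentiation complex turned below 0 when the arrays were corrected with normexp (−0.013), quantile normalised (−0.013) or centred on their densest value (−0.022). Taking off the running median of D over regions ranked by mean M gave −0.034, and −0.013 with dim immunoprecipitated probes also left out. Its direction therefore depends on the processing. Centring on the densest value also shifted the array as a whole, whose median D became −0.20 on slide 1 and 0.01 on slide 2.

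D of the epidermal differentiation complex was set beside that of other regions with equally low M. In the lowest class of mean M the median D was 0.19 over its 40 regions, against 0.31 over all regions of the class. In the second class both medians were 0.24, and in the third the complex had 0.26, against 0.18. In that lowest class 11.4% of all regions were called higher, and in the highest class 12.4%, against 0.81% or less in classes 6 to 9. Of the complex, 3 of 40 regions were called higher in the lowest class. In the second class 1 of its 26 regions was, against 8.46% of all regions, and in the third 2 of 22, against 5.65%.

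**Figure D5:**
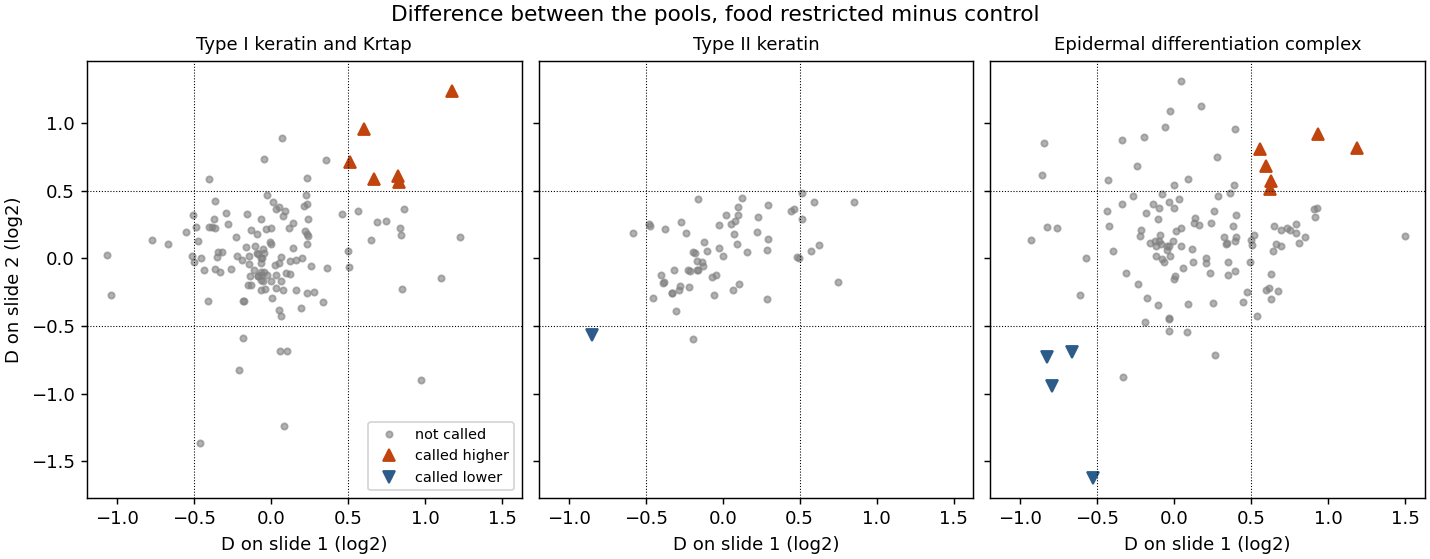
D (food restricted minus control, log2 scale) of each region on slide 1 (horizontal axis) against slide 2 (vertical axis) in the 3 clusters, with the called regions marked and lines at 0.5 in size. The type I cluster has 6 regions in the upper right corner, the type II cluster 1 in the lower left, and the epidermal differentiation complex 6 and 4.

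In the type I cluster, 3 of the 6 higher regions were among its strongest. At 99198396 to 99199570 D was 0.60 on slide 1 and 0.96 on slide 2, or 1.72-fold. At 99211364 to 99212544, the strongest region of the cluster, D was 0.51 and 0.71, or 1.53-fold, and at 99282738 to 99284081 it was 0.83 and 0.56, or 1.62-fold. In each of these 3 regions the immunoprecipitated signal, centred per array, was lower in the food restricted pool on both slides, with differences of −0.27 and −0.17, −0.38 and −0.51, and −0.46 and −0.22. The reference signal was also lower, with differences of −0.48 and −0.61, −0.34 and −1.15, and −0.73 and −0.62. None of these 3 was called in the immunoprecipitated channel alone, with quantile normalisation or with densest value centring.

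The other 3 higher regions of the type I cluster had M below 0. At 99741112 to 99741503 D was 1.18 and 1.24, but both pools were dim, with 1 of 3 probes above background on each array, so no fold is given. At 99713035 to 99714444 (9 probes) M was −0.59 and −0.57 in the food restricted pool, against −1.42 and −1.18 in the control pool, and the region was dim in the control pool. At 99795876 to 99797653 (8 probes), which was dim in neither pool, D was 0.67 and 0.58, or 1.54-fold. The 3 were lost with normexp correction and with loess normalisation, and those at 99713035 and 99795876 also with means in place of medians over probes.

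The lower region of the type II cluster, from 101648985 to 101649965 (5 probes), had M of 0.24 and 0.66 in the food restricted pool, against 1.09 and 1.23 in the control pool. Its D was −0.85 and −0.56, or 1.63-fold lower. It begins 219 bp after the end of the strongest region of the cluster, where D was 0.86 and 0.41 in the other direction. Its immunoprecipitated signal differed by −0.40 on slide 1 and by 0.19 on slide 2, and its mean D was 0.028 with means over probes. It was called in 5 of 12 alternative settings, but not with the pools as in the value table (mean D 0.28). For any region dim in neither pool, 'value table' and 'without dim regions' among the 12 repeat the main values and could not lose the call.

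In the epidermal differentiation complex, 1 of the 6 higher regions was dim in neither pool, the region from 93358656 to 93360033 (7 probes). Its M was −0.52 and −0.83 in the food restricted pool, against −1.45 and −1.75 in the control pool, which is 1.90-fold. Both channels were brighter in the food restricted pool, the immunoprecipitated one with differences of 0.62 and 0.37 and the reference one with 0.47 and 0.30. It was called in 9 of 12 alternative settings that keep the pools of the scanner files, and lost with normexp, with loess and in the immunoprecipitated channel alone. With the pools as in the value table its mean D was −0.30. Its probes were uneven: the one at 93358816 had M between 3.01 and 3.78 on the 4 arrays, while that at 93359361 had −2.87 to −1.62 and was above background on none.

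The region from 91887690 to 91889081 (9 probes) had M of −0.82 and −0.98 in the food restricted pool, against −2.01 and −1.80 in the control pool. In the immunoprecipitated channel 6 and 4 of its probes were above background on the food restricted arrays, against 1 and 2 on the control arrays. Its fold against the lowest signal well above background was 1.02. That is no sure lower limit: the probe at 91888851, which set the median on the food restricted array of slide 2, was not above background. The call held in 8 of the 10 alternative settings that measured this region, and was lost with normexp (mean D 0.015) and loess (0.60). The value table, among the 8, repeats the main values and could not lose the call. With the pools as in the value table mean D was 0.025. The region from 92997743 to 92998909 (6 probes), with D of 0.60 and 0.68, was also dim in the control pool and has no fold. The other 3 higher regions, starting at 92144101, 92289616 and 92476503, had mean D between 0.57 and 0.68 and were dim in the control pool.

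The lower region from 93326542 to 93328265 (8 probes) was the only one of the 4 in the complex that was dim in neither pool. Its M was 0.15 and 0.18 in the food restricted pool, against 0.81 and 0.88 in the control pool, with D of −0.67 and −0.70, or 1.60-fold lower. The difference lay in the immunoprecipitated signal, by −0.76 and −0.75, while the reference signal differed by 0.03 and 0.05. It begins 366 bp after the end of the second strongest region of the complex, where the pools differed by less than the arrays of 1 pool. The probe at 93326542 had M of 2.36 and 2.43 in the food restricted pool, against 2.12 and 2.22 in the control pool, and the probe at 93327457 had −0.80 and −0.88, against −0.16 and −0.05. The probe at 93327693, which helped set the median on the control array of slide 2, was above background on no array. With means over probes the mean D of the region was −0.31, and without dim immunoprecipitated probes it was also −0.31. The region was called in 8 of 12 alternative settings, among them those that repeat the main values. The call was lost with normexp, loess, means over probes and without dim immunoprecipitated probes. With the pools as in the value table its mean D was 0.05 and the call was lost.

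Of the other lower regions, that from 92570017 to 92570568 (4 probes) had M of −1.35 and −1.65 in the food restricted pool, against −0.56 and −0.71 in the control pool, and was dim in both. The region from 92525612 to 92527204 (8 probes) had −0.54 and 0.13, against 0.29 and 0.86, and was dim in the food restricted pool. The last, from 92738068 to 92738505 (3 probes), had D of −0.52 and −1.62 and was dim in both pools. None of these 3 has a fold, and each was lost when normexp, loess, means over probes or the immunoprecipitated channel alone were used.

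Facts of the whole array touch each of these values. Over all regions the immunoprecipitated signal, centred per array, differed between the pools by −0.14 and −0.13 on the slides. M of all regions correlated at 0.972 between the food restricted arrays and at 0.965 between the control arrays, against 0.969 between the pools on either slide. D correlated between the slides at r = 0.16 in the epidermal differentiation complex, 0.22 in the type I cluster and 0.45 in the type II cluster, against 0.34 over all regions. Each pool had the same position on both slides, so position and pool cannot be told apart.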

How the data were processed

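Methylated DNA was measured on 4 2-colour arrays, grouped by their titles into the food restricted pool and the control pool. The submitters' processing notes name Agilent Feature Extraction 10.5.1.1 for the scanner output. Per the file headers, the deposited processed intensity of each channel is background-subtracted, with surrogate values for dim signals and a linear dye factor within the array, and probe positions are on mm9. The deposited log10 ratio of red over green, made by the same software per the file headers, was not used. The sources used here do not name the antibody or the fragmentation. Deposited flags marked outliers, saturation and signals well above background. Of 420288 spots, 4474 controls and 65 probes flagged as outliers were left out, and 415749 remained.

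The authors' deposited value table holds uncentred log2 of red over green in each array's own dye order, with column medians from −0.225 to 0.242. Its columns for the food restricted array of slide 1 and the control array of slide 2 hold each other's scanner values (100% of probes equal within 0.001) and correlate at r = −0.908 with their own scanner file, so the scanner files were used. If the value table were right, each pool would lie on 1 slide and in 1 dye orientation, and pool and slide could not be told apart.

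M was log2 of immunoprecipitated over reference signal, with the dyes taken from the titles, less the median of the array. Probes with starts at most 500 bp apart were joined into regions of at least 3 probes whose starts span at most 2000 bp, and a region took the median M of its probes. The 3 intervals held 881, 494 and 941 probes (type I, type II, epidermal differentiation complex), of which 841, 485 and 903 lay in the 327 regions. A further 5 lay in a region across the type II border, and 40, 4 and 38 in no region. For differences in 1 channel, log2 signals were centred on that channel's array median and summarised by region, and the 2 channels do not sum exactly to D. A fold is 2 to the mean D. With 1 dim pool it is a bound against the lowest signal well above background, and none is given where that bound is under 1 or both pools were dim. The bound holds only where the median of the other pool rests on signals above background.

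Named regions were the 3 highest and lowest in M and, per direction, the first 3 called in each cluster by the smaller D of the slides. Those starting at 99282738, 99795876, 92738068, 92144101, 92289616 and 92476503 were added after their values were seen. The clusters, gene lists and settings were chosen with earlier results of these data known. Alternatives changed the background correction, normalisation, centring, probe filters, joining, threshold and slide block. The 12 settings counted for single regions leave out those of 1 slide, joining, threshold, slide block and pool assignment. Among the 12, the value table repeats the main values of each called region but for rounding. The setting without dim regions repeats those of a region that is dim in neither pool. Mean spot signals were not used here, so normexp (limma 3.58.1, R 4.3.3, offset 50) took median spot and background signals. Scripts ran in Python 3.11.15 with numpy 2.4.6 and pandas 2.3.3, and the calling step was tested on simulated data. Precision is limited by the 2 arrays per pool, and no p-value was computed.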

Additional observations from a re-analysis of the deposited data

How the results depend on the processing

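In each of the settings run, the median M of both keratin clusters lay above that of all regions and the median of the epidermal differentiation complex below it, but the distances moved. In the main setting they were 0.70 (type I), 0.94 (type II) and −1.11 (epidermal differentiation complex), with 12 higher and 5 lower regions and a median D of 0.038. Normexp gave distances of 0.26, 0.35 and −0.105, with 5 higher and 0 lower regions (2.72% and 0.00177% of the array). Loess gave 0.58, 0.29 and −0.35, with 21 and 2 (8.53% and 0.418% of the array). Without dim immunoprecipitated probes the distances were 0.59, 0.45 and −0.65, with 5 and 0 of the 203 regions still measured (3.9% and 0.153% of the array). Without dim regions they were 0.67, 0.60 and −0.80, with 5 and 2 of 220 (4.04% and 0.367% of the array). The immunoprecipitated channel alone gave 0.30, 1.12 and −2.01, with 9 higher and 9 lower regions (3.33% and 1.72% of the array). Its median D was −0.16, against −0.12 over all regions. Without dim reference or saturated probes the distances were 0.80 and 1.08 in the keratin clusters. There 13 higher and 3 lower of 314 regions were called (5.2% and 0.232% of the array). The type II cluster was below the type I cluster with loess and without dim probes or regions. Joining over 300 bp gave 1.33 in the type II cluster, with 9 higher and 2 lower of 342 regions (5.38% and 0.621% of the array).

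Lower regions outnumbered higher ones with quantile normalisation (3 higher, 4 lower), the running median (3 and 4) and the densest value (4 and 7, with a median D of −0.12), where the array had 1.18% and 1.03%, 1.09% and 0.994%, and 1.72% and 1.74%. The running median with dim probes left out gave 1 and 0 of 203 regions (0.921% and 0.251% of the array). No centring gave a median D of 0.12, while that of the whole array became 0.14 and 0.15 on the slides. Means over probes gave 8 higher and 1 lower (3.11% and 0.189% of the array), and a threshold of 1 gave 1 higher and 0 lower (0.192% and 0.0424%). With the arrays assigned to pools as the columns of the value table have them, 6 were higher and 1 lower (2.52% and 1.03% of the array). None of the original regions was called in its original direction, though some kept the sign of their mean D, and 1 of the 5 lower regions, at 92525612, was called higher. With no replicate block, each food restricted array was set against the control array of the other slide. Then 2 regions were lower and 13 higher (0.44% and 3.96% of the array). The median D stayed at 0.038 by construction, since this pairing leaves the mean D of a region unchanged. On slide 2 alone (without replicate 1) 32 of 327 regions were higher and 17 lower, where the array had 13.8% and 3.75%. On slide 1 alone (without replicate 2) 56 were higher and 21 lower, where the array had 12.4% and 4.49%. The median D on 1 slide was 0.0047 to 0.092, with distances of 0.65 to 0.72, 0.90 to 1.04 and −1.16 to −1.10. Pairing by slide is part of the main setting. Unless stated, the cause was not tested. Dim signal limits most of the epidermal differentiation complex.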
